A study of Mus musculus with 6 samples.

Results

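Open chromatin was compared between inhibitors of class I histone deacetylases at 459 sites that had been called higher with MS-275 than with CXD101 but not called as gained with MS-275 against vehicle. M-MDSCs, the monocytic kind of myeloid-derived suppressor cell, were isolated by flow cytometry as CD11b+Ly-6ChiLy-6G- cells from Hepa 1-6 hepatoma grown in the liver of wild-type, young adult female C57BL/6 J mice, all of which carried the tumor. The mice received vehicle, MS-275 or CXD101 by daily injection, both inhibitors at the same dose by weight, and each of the 3 groups gave 2 ATAC-seq libraries. ATAC-seq uses a transposase that cuts open DNA and inserts sequencing adapters, so the number of tags at a site measures its accessibility. Each deposited list of peaks had been called on the pooled libraries of a pair of groups, so the replicate error is unknown for every value below and no difference was set against it. In a pool of sorted cells, a change of accessibility per cell and a change in the mix of cells cannot be told apart.

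Deacetylases remove acetyl groups from histone tails, and acetylated histones are found at open promoters and enhancers. Inhibitors of HDAC1 to HDAC3 therefore raise histone acetylation, and both MS-275 and CXD101 belong to this class. M-MDSCs are immature monocytic cells that build up in tumors and hold back T cells. Their chromatin is shaped by myeloid transcription factors such as PU.1, C/EBP, RUNX1, IRF and AP-1 proteins.

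The sites were chosen from measured values. The list of MS-275 over CXD101 held 1650 peaks, and those that shared no base with any of the 8480 peaks of MS-275 over vehicle were kept. The other 1191 peaks of the direct list overlapped such a gained peak. All 6 lists together held 11800 peaks. The 459 peaks lay in 441 distinct intervals, since 36 of them were summits that shared an interval, and they were spread over all autosomes and chromosome X of mm10. Because the selection used the MS-275, CXD101 and vehicle tags, the values of these groups at the sites are a description of what was selected.

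Sites among those with the lowest p-values of the direct comparison, and the CXD101 lost sites with the highest fold enrichments, are shown as sequence first, because their base composition and motif matches differ widely although they were called by the same comparison. Each sequence is the summit base with 100 bp on either side, on the plus strand of mm10, in lower case with matches to the motifs searched in capitals. The site nearest to Lpp, which encodes a protein of focal adhesions, lay at chr16:25059073-25059273 upstream of the noncoding gene A230028O05Rik, 214 kb from the Lpp start. The site in Serpinb7, a serine protease inhibitor gene, lay in an intron at chr1:107447494-107447694. Sites in introns of Htra3 and Asap1, a secreted protease gene and an ARF GTPase-activating gene, lay at chr5:35670781-35670981 and chr15:64222530-64222730. The site nearest to Ggh, the gene of gamma-glutamyl hydrolase, lay in an intron of the noncoding gene 4930598A11Rik at chr4:20033199-20033399.
Lpp: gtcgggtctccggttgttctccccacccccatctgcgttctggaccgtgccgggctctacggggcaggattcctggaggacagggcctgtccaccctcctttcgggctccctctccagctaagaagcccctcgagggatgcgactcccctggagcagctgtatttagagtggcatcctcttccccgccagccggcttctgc
Serpinb7: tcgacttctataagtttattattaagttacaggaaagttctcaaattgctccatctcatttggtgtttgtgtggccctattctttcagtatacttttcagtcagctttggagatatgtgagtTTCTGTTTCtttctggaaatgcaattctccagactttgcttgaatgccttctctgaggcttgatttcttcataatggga
Htra3: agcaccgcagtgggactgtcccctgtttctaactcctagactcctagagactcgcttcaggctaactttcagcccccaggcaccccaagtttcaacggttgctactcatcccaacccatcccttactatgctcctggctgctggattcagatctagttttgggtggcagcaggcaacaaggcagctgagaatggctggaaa
Asap1: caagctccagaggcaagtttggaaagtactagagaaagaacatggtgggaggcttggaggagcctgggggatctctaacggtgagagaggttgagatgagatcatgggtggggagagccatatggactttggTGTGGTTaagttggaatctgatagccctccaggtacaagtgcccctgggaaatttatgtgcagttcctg
Ggh: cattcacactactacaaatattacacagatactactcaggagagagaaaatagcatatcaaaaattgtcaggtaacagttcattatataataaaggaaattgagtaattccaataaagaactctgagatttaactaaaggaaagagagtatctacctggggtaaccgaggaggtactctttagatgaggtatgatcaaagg

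The Lpp window was the most GC-rich of these 5, with a GC content of 64.7% and 11 CpG, whereas the Ggh window had a GC content of 33.8% and 1 CpG. The capitals mark an IRF match in Serpinb7 and a RUNX match in Asap1. No motif of those searched was present in the Lpp, Htra3 and Ggh windows.

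The 3 sites that were also lost with CXD101 against vehicle and had the highest fold enrichments were nearest to Ccl9, Tomm20 and H2afj. The Ccl9 site, 4.96 kb upstream of this monocyte-attracting chemokine gene, lay at chr11:83583494-83583694. The Tomm20 site lay 61.3 kb from the start of this gene of a mitochondrial import receptor, in an intron of the noncoding gene Gm31718, at chr8:126884461-126884661. The H2afj site lay in Wbp11, which encodes a splicing-associated protein, 6.34 kb from the start of the histone gene H2afj, at chr6:136814577-136814777.
Ccl9: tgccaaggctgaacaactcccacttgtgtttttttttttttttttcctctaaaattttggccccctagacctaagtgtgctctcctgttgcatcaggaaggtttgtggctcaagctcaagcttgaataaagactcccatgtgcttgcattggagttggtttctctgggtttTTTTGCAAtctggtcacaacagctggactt
Tomm20: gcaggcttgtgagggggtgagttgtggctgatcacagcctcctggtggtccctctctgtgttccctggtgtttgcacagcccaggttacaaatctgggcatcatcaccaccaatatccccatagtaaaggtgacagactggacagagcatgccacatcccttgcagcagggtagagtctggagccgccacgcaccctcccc
H2afj: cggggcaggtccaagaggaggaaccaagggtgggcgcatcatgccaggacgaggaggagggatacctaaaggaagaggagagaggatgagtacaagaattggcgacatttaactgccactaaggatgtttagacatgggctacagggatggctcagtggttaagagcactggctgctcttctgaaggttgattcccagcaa

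The capitals mark a C/EBP match in the Ccl9 window, and the windows of the other sites held no match.

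At the 459 sites the median was 58.7 MS-275 tags (scaled to CXD101 depth) over a CXD101 level of 22.0. Their fold enrichment had a median of 2.41 (interquartile range 2.11 to 2.92). The fold enrichment is the deposited ratio of the treated pileup to the control level at the summit, with 1 added to both, and the tags behind it were solved from it and the p-value. The 1191 peaks that were also MS-275 gained had medians of 67.6 MS-275 tags over a CXD101 level of 27.2 and a fold enrichment of 2.37. The sites described here therefore stood on fewer tags at a like fold. Their peaks were also shorter, with a median of 217 bp against 231 bp, and 52.5% (95% Wilson interval 47.9 to 57) were at most 220 bp long against 39.5% (36.8 to 42.4). The shortest peak that the caller returned had 200 bp, so most of these sites lay close to the lower limit of length.

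**Figure D1:**
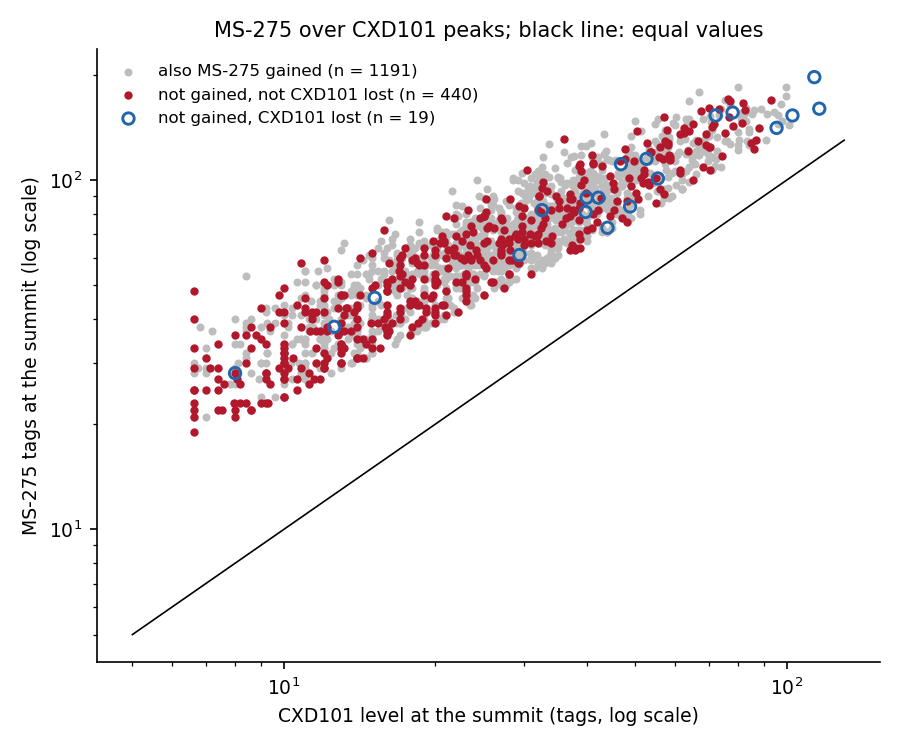
MS-275 tags (vertical axis, log scale) against the CXD101 level (horizontal axis, log scale) at the summit of each of the 1650 peaks of MS-275 over CXD101; the depth ratio of the MS-275 to the CXD101 pool was 1.01. Red points are the 440 sites that were neither gained with MS-275 nor lost with CXD101, blue circles the 19 that were CXD101 lost, grey points the 1191 peaks that were also MS-275 gained; all points lie above the line of equal values, which the call itself requires.

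The fold enrichment is not a plain ratio between groups. A treated pileup and a control level are computed differently by the caller, which takes for the control the highest of several local averages. Where the same group was treatment in a list and control in another, within 20 bp of the same summit, its treated tags were the higher value: at 25 summits CXD101 tags were a median of 1.70 times the CXD101 level (interquartile range 1.43 to 1.88, range 1.01 to 3.01), with both at vehicle depth. None of these 25 summits was near a site described here, so the ratio at the 459 sites was not measured. The 25 had been selected both as CXD101 gained and as called higher with MS-275 than with CXD101. For MS-275 the only such summit was that of Immt, with 172 tags as treatment and a level of 105 as control. Of the 459 sites, 436 had a fold enrichment above 1.70, although the fold carries a pseudocount of 1 and this ratio does not. The folds printed here are those of the caller, not ratios of like quantities, and what sets the treated tags above the level was not tested.

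**Figure D2:**
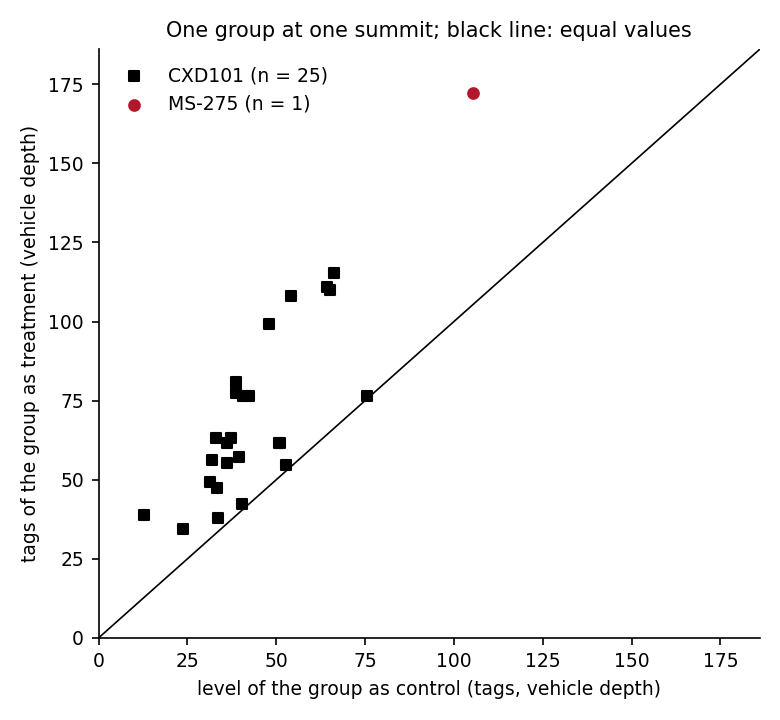
Tags of a group as treatment (vertical axis) against the level of the same group as control (horizontal axis), both at vehicle depth, at 25 summits for CXD101 (black squares) and 1 for MS-275 (red point, Immt). All points lie above the line of equal values, those of CXD101 by a median factor of 1.70.

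The site with the lowest p-value among the 459, nearest to Lpp, had 131 MS-275 tags over a CXD101 level of 36.0. This gave a −log10 p-value of 33.6 at a fold enrichment of 3.55. The Serpinb7 site had 107 MS-275 tags over a level of 30.4. The Htra3 site had 151 MS-275 tags over a level of 57, with a fold enrichment of 2.61. The Asap1 and Ggh sites had 72 and 138 MS-275 tags over levels of 15.8 and 50.4. The genome-wide background of the CXD101 pool, 6.64, was the CXD101 level at 10 of the 459 sites and at 3 of the 1191 other direct peaks.

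Of the other sites among the 20 with the lowest p-values, 3 lay within the 5 kb upstream of a protein-coding gene. The Plxnb2 site, 0.176 kb upstream of the start of this semaphorin receptor gene, had 118 MS-275 tags over a CXD101 level of 41.0. The Hivep1 site, 0.522 kb upstream of a zinc finger transcription factor gene, had 170 tags over 76.4. The Tgfb1 site, upstream of the gene of the immunosuppressive cytokine TGF-β1 and inside the neighbouring gene B9d2, had 158 tags over 67.4. The Rsad2 site, 3.71 kb upstream of the interferon-induced antiviral gene Rsad2 (−log10 p-value 19.1), came just after these 20, with 112 tags over 41.2. Intergenic sites were nearest to Tas2r134 (58 tags over 10.8), Ppm1h (59 over 12), Runx3 (79 over 21.0), Atp2a3 (111 over 38.8), Cdc42se2 (110 over 38.6) and Txn2 (78 over 21.8). Introns of Zmiz1 and of Trerf1 (nearest start that of Mrps10) held sites with 161 tags over 70 and 99 over 32.8, an exon of Kif19a held a site with 88 over 25.2, and sites upstream of noncoding genes near Gclc and Scamp1 had 82 over 23.2 and 123 over 47.6. The Runx3 site lay 53.6 kb upstream of the start of this RUNX factor gene.

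**Figure D3:**
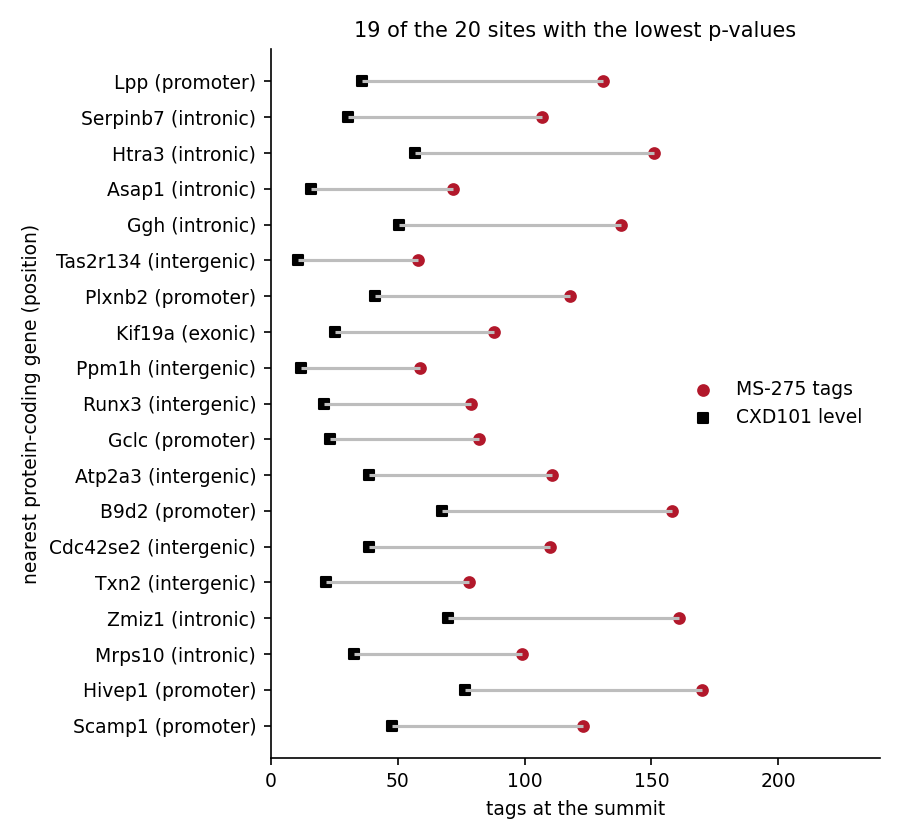
MS-275 tags (red points) and CXD101 level (black squares) at 19 of the 20 sites with the lowest p-values, named by the nearest protein-coding gene with the position of the peak in brackets. MS-275 values run from 58 tags at Tas2r134 to 170 at Hivep1, and each lies above the CXD101 level of its site, as the selection requires.

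Vehicle could be placed beside both inhibitors at the sites that were also in a list against vehicle. Of the 459 sites, 19 (4.14%, 95% Wilson interval 2.67 to 6.37) overlapped a peak of vehicle over CXD101, that is a CXD101 lost peak, against 1 of the 1191 other direct peaks (0.0840%, 0.0148 to 0.474) and 1.21% of all 1650 direct peaks. The difference between these shares was not tested, and a peak gained with MS-275 over vehicle had to have a low vehicle level. All 19 had summits within 250 bp of each other in both lists. At vehicle depth the 19 sites had a median of 83 vehicle tags (35 to 199), of 77.8 MS-275 tags (24.5 to 172) and a CXD101 level of 41.2 (7.04 to 102). Vehicle tags and MS-275 tags are both treated pileups and so like quantities. The ratio of vehicle to MS-275 tags at the 19 sites had a median of 1.10 and ran from 0.886 to 1.43. Vehicle was the higher at 18 of the 19. The selection favours this order, since MS-275 was not called above vehicle and vehicle was called above CXD101. Each value was read at the summit of its own list, and these summits lay up to 162 bp apart (Sema3f). The CXD101 value was below both at each of the 19 sites, but it is a control level and so not a like quantity.

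The Ccl9 site had 35 vehicle tags, 24.5 MS-275 tags and a CXD101 level of 7.04. The Wbp11 site nearest to H2afj had 46 vehicle tags, 33.2 MS-275 tags and a CXD101 level of 11.1. At the Jarid2 promoter, upstream of a cofactor gene of Polycomb repressive complex 2, MS-275 exceeded vehicle, with 97.0 MS-275 tags, 86 vehicle tags and a CXD101 level of 41.2. This was the only site of the 19 with MS-275 above vehicle. At the Npc1 promoter, of a gene for lysosomal cholesterol export, the values were 134 MS-275 tags, 147 vehicle tags and a CXD101 level of 63.5. Other sites of this kind at promoters were those of Exd1, with 134 MS-275 tags, 146 vehicle tags and a CXD101 level of 90.2, and of Msra, a repair enzyme gene for oxidised methionine, with 70.8, 76 and 35.0. Introns of Rbm20, Rbms1 and Pde2a and intergenic sequence nearest to Fndc1, Foxs1, P2ry2 and Sema3f held further sites, and the Nek6 and Tmem189 sites lay upstream of noncoding genes. Of the 19, 14 were among the 115 sites with the highest CXD101 levels.

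**Figure D4:**
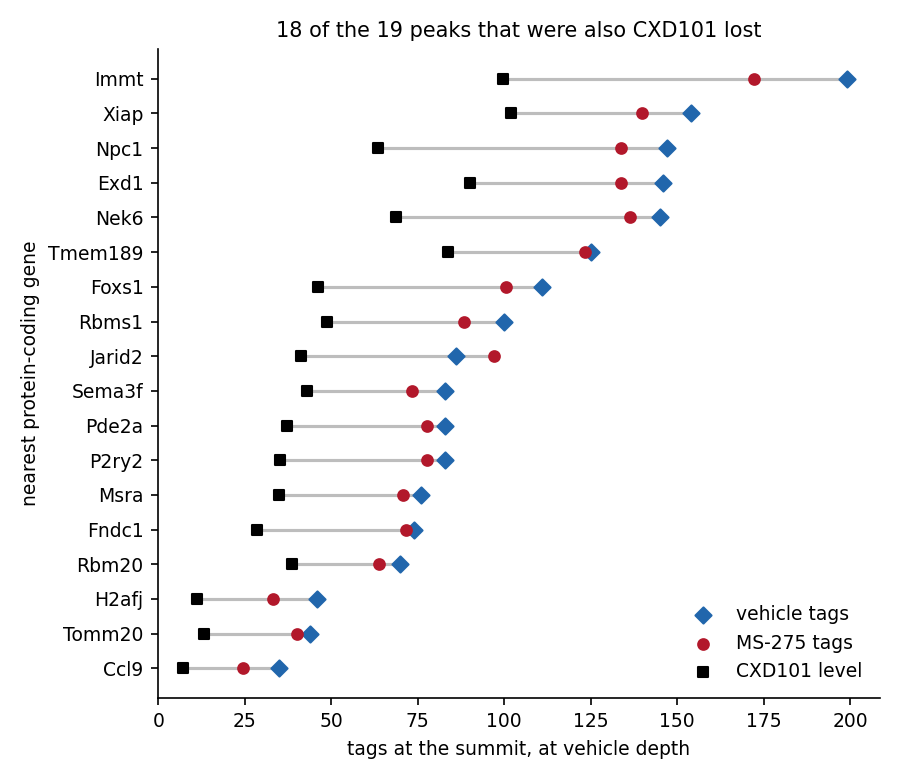
Vehicle tags (blue diamonds), MS-275 tags (red points) and CXD101 level (black squares) at 18 of the 19 sites that were also CXD101 lost, all at vehicle depth and named by the nearest protein-coding gene. The CXD101 level is the lowest of the values drawn at each site and vehicle the highest at all but Jarid2; the CXD101 value is a control level and the others are treated pileups.

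The promoters of Immt, a gene of the mitochondrial inner membrane organising complex, and Xiap, which encodes an inhibitor of caspases, stood in 3 lists at once: MS-275 over CXD101, vehicle over CXD101 and vehicle over MS-275. They were the only 2 of the 459 sites that were MS-275 lost (0.436%), against 0.121% of all 1650 direct peaks. The other direct peaks overlapped MS-275 gained peaks, so an MS-275 lost call was hardly open to them. At Immt, 172 MS-275 tags were called above a CXD101 level of 99.7, and 199 vehicle tags above an MS-275 level of 105. At Xiap, 140 MS-275 tags were called above a CXD101 level of 102, and 155 vehicle tags above an MS-275 level of 99.7. In each case the MS-275 value depended on whether the group was treatment or control. Set side by side as control levels, MS-275 and CXD101 were at 105 and 99.7 at Immt and at 99.7 and 102 at Xiap. By like quantities MS-275 was thus slightly above CXD101 at Immt and slightly below it at Xiap. However, the levels compared were read at summits 9 bp apart at Immt and 24 bp apart at Xiap. In the list of vehicle over CXD101 the CXD101 level was 99.7 at Immt and 100.3 at Xiap. As treated pileups, MS-275 and vehicle were at 172 and 199 tags at Immt and at 140 and 155 at Xiap. None of the 459 sites was CXD101 gained, which allows a share of up to 0.654%, whereas 51 of the 1191 other direct peaks were (4.28%) and 3.09% of all 1650. The rule largely fixes this absence. A site above CXD101 where CXD101 was above vehicle would mostly be MS-275 gained too, and such sites were left out.

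For the other 440 sites no vehicle value was in the lists, and only bounds could be set. The MS-275 tags would have passed the least strict p-value of the gained list had the vehicle level been under a median of 29.2 tags at vehicle depth. This bound was a median of 1.42 times the CXD101 level of the same site (interquartile range 1.21 to 1.74) and 0.576 times the MS-275 tags. Over all 459 sites it lay above the CXD101 level at 441 (96.1%), which follows largely from the selection. From the absence of a CXD101 lost call, the vehicle tags at the 440 sites would have been at most a median of 36.5, and the MS-275 tags were a median of 1.29 times that number. At 55 of the 440 sites (12.5%) the lower bound on the level exceeded the upper bound on the tags, which are unlike quantities. All of the 20 sites with the lowest p-values were among them. Their bounds were, for example, 80.3 and 55 at Lpp, 63.0 and 48 at Serpinb7 and 95.4 and 79 at Htra3. A stretch shorter than 200 bp is not called whatever its tags, so either bound may fail.

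Most sites lay well apart from any gained peak. The median gap to the nearest MS-275 gained peak was 34.2 kb, 9 sites (1.96%) had a gained peak within 200 bp, 38 (8.28%) within 1000 bp and 130 (28.3%) within 10 kb. Of the 20 sites with the lowest p-values, those of Txn2, Atp2a3 and Htra3 had gaps of 143, 181 and 239 bp. The gaps of the others were at least 1865 bp (Plxnb2). Just outside the rule for a shared peak lay the sites of Dpy30, which encodes a subunit of histone H3K4 methyltransferase complexes, with a gap of 18 bp, of Meis3 with 113 bp and of Erg with 139 bp. Just inside it, and so not counted here, were a direct peak upstream of Ccr1l1 that shared 18 bp with a gained peak and direct peaks near Id2 and Hk2 that shared 117 and 133 bp. At the other limit, the sites with the highest p-values were nearest to Mgll and Cited2, with 64 and 63 MS-275 tags over CXD101 levels of 38.8 and 38.0.

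The position of the sites differed little from that of other peaks, apart from distance. Of the 459, 136 (29.6%, 25.6 to 34.0) overlapped the 5 kb upstream of a transcription start site (TSS), 157 (34.2%) were intronic, 136 intergenic and 30 (6.54%) exonic. The promoter share was 31.7% (29.1 to 34.4) among the other direct peaks and 31.5% among the 7005 gained peaks outside the direct list, within the interval of the sites. Summits over 50 kb from any coding TSS made up 14.4% (11.5 to 17.9) of the sites, 21.1% (18.8 to 23.5) of the other direct peaks, 22.5% of the gained peaks outside the direct list and 13.1% (10.8 to 15.8) of the 693 CXD101 lost peaks. The intervals of the sites and of the other direct peaks did not overlap for this share. These intervals cover counting error only, and no difference between sets was tested.

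Sites of high CXD101 level were more often in promoters than sites of low level. The level was itself used in the selection. The other direct peaks were not split in this way, so whether they share the pattern is not known. Among the 115 sites with the lowest levels (6.64 to 13) the median fold enrichment was 2.98, and 23 were in promoters. Among the 115 with the highest levels (38 to 116) it was 1.96, and 44 were in promoters. A fall of the fold with the level follows from the call, which needs a higher fold at low counts. Promoter sites as a whole had a median of 68 MS-275 tags over a CXD101 level of 27.7, and intronic sites 52 over 19.8.

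Sequence composition was close to that of the other peaks. The median GC content within 100 bp of the summit was 50.2% at the sites and at the other direct peaks, and 46.8% at the same positions moved by 10 kb. Matches on either strand to TGANTCA, the site of AP-1, were present at 34 sites (7.41%, 5.35 to 10.2), against 5.66% (3.90 to 8.17) at positions moved by 10 kb, 4.45% (3.42 to 5.78) of the other direct peaks and 4.61% of the gained peaks outside the direct list. Among all CXD101 lost peaks the share was 19.8% (17.0 to 22.9), above the interval of the sites. None of the motifs contains another, and those of PU.1 and ETS share their last letters. GAGGAAGT (PU.1) matched at 10 sites against 5 moved positions. TTGCNNAA (C/EBP) matched at 41 against 41, GAAANNGAA (IRF) at 36 against 38 and TGTGGTT (RUNX) at 27 against 28. GGGCGGGG (SP and KLF factors) matched at 8 sites (1.74%) and 41 of the other direct peaks (3.44%). GGANTTTCC (NF-kB), CCGGAAGT (ETS), CACGTG (E-box), GCGCANGCG (NRF1) and the CTCF motif were found at 5, 1, 12, 2 and 1 sites.

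**Figure D5:**
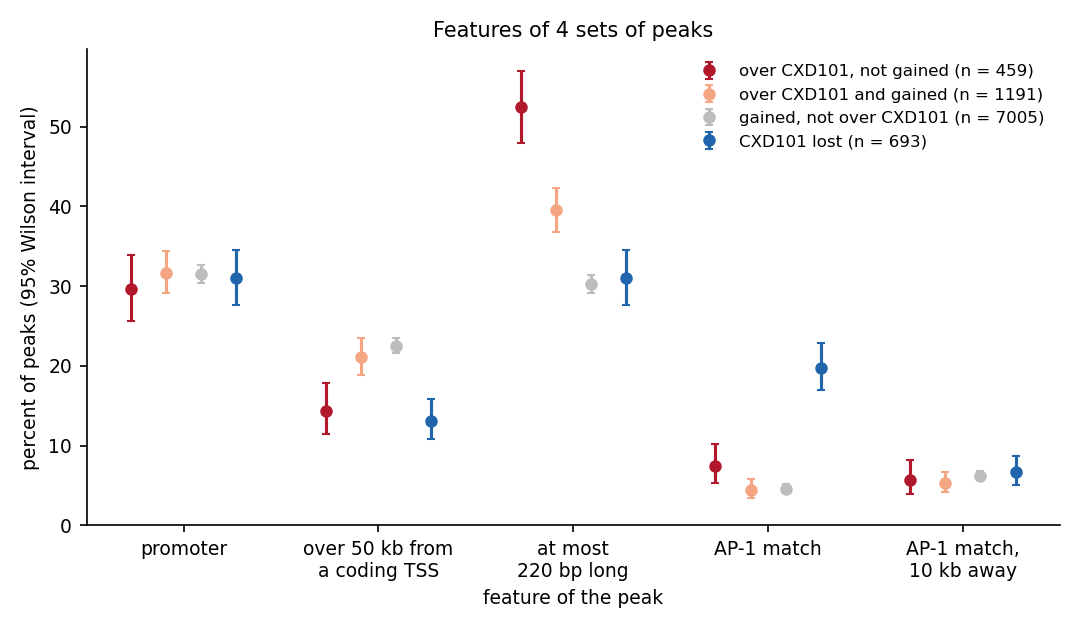
Percent of peaks (vertical axis, with 95% Wilson intervals) in a promoter, over 50 kb from a coding TSS, at most 220 bp long, or with an AP-1 match within 100 bp of the summit and 10 kb away, for the 459 sites (red), the 1191 other direct peaks (orange), the 7005 gained peaks outside the direct list (grey) and the 693 CXD101 lost peaks (blue). The 459 sites stand highest for short peaks, with 52.5%, and CXD101 lost peaks for AP-1 matches, with 19.8%.

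Protein-coding genes with such a site in the gene body or the 5 kb upstream numbered 249 of 21728, which is 1.15%. A longer gene is more likely to hold a peak of any list, and gene length was not taken into account. Of the 249 genes, 105 (42.2%) also had an MS-275 gained peak and 44 (17.7%) another direct peak, beside 11.7% and 2.66% of all protein-coding genes. The difference between these shares was not tested. Among 45 myeloid transcription factor genes, Spi1, Runx1 and Pparg had a site (6.67%, beside 1.15% of all protein-coding genes). A gained peak was present at 20 of the 45, beside 11.7% of all protein-coding genes. Neither share was tested. Spi1, which encodes PU.1, had an intronic site 2.15 kb from its start with 126 MS-275 tags over a CXD101 level of 58.0. Runx1, a regulator of blood cell formation, had 3 intronic sites, with 79 tags over 25, 110 over 43.0 and 48 over 23.0. The last of these lay 80.1 kb from the nearest TSS of Runx1 and held matches to AP-1, C/EBP and RUNX motifs. Pparg, a lipid-sensing nuclear receptor gene, had an intronic site with 66 tags over 31.0 and matches to PU.1 and C/EBP motifs.

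Of 24 genes of MDSC suppression Tgfb1 had a site (4.17%), of 29 chemokine and receptor genes Ccl9 (3.45%) and of 12 AP-1 genes Atf3 (8.33%). Of 47 genes of deacetylases and their complexes Gatad2a had a site (2.13%). Of 31 genes of cell cycle arrest and apoptosis Bcl2l1 had a site (3.23%), and of 32 interferon genes found Rsad2 (3.1%). These shares stand beside 1.15% of all protein-coding genes. Each rests on 1 gene, and no difference was tested. The Atf3 site had 66 MS-275 tags over a CXD101 level of 32.0, the Gatad2a site, in a gene of the NuRD deacetylase complex, 96 over 49.0, and the site in an exon of the survival gene Bcl2l1 34 over 14.6. The site upstream of Rsad2 held an IRF match, a motif found at 36 of the 459 sites and at 38 of the positions moved by 10 kb. No site lay at any of the 16 monocyte, 20 macrophage, 13 neutrophil, 10 dendritic cell, 12 T cell, 9 B cell, 10 NK cell, 11 erythroid or 12 hepatocyte marker genes listed, beside 1.15% of all protein-coding genes, a share at which lists this short would hold few sites or none. Genes of antigen presentation (19), Nedd4 family ligases (9), synaptic and neuronal genes (36) and the 7 genes the study discussed had no site either. The lists hold differences between groups, so the identity of the sorted cells could not be checked from them.

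Several distinct sites stood at 19 genes. Pik3cd, which encodes the leukocyte PI3K subunit p110δ, had 3, with fold enrichments from 2.19 to 2.94. Lyz2, the lysozyme gene expressed in monocytes and macrophages, had 2 sites in a gene of only 4.99 kb, with 88 MS-275 tags over a CXD101 level of 37.0 at 178 bp from the start and 39 over 15.4 at 0.995 kb upstream. The ETS factor genes Fli1 and Erg had 2 sites each, with 98 tags over 45.2 and 59 over 24.6 in Fli1, and 31 over 10.4 and 51 over 26 in Erg. Plxnb2, named above, had a second site in an intron with 166 tags over 81.8, and Litaf, a lipopolysaccharide-induced gene, had 2 intervals with fold enrichments from 1.56 to 1.89. The remaining genes were Ceacam16, Cerk, Clec16a, Coro2a, Dgkz, Gm19345, Gm20388, Lipc, Padi2, Pnpla1, Runx1, Synj2 and Wbp11. Ceacam16 and Gm19345 overlap and share their 2 sites, and Gm20388 is a read-through gene model of 4435 kb.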

How the data were processed

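The 6 libraries (3 groups of 2) were grouped by their treatment labels. Per the labels and the methods, the authors aligned reads with Bowtie2 to mm10 and called peaks with MACS2 (version 2.2.7.1), without a model and with a shift of 0, on pooled libraries, 1 group as treatment and another as control. Reads of an ATAC-seq library are often moved to the transposase cut; without that a summit can be displaced by a few bases. The deposited fold enrichment is a ratio of the treated pileup to the control level with a pseudocount of 1. The significance was deposited as −log10 p-values and −log10 q-values, and no peak had a q-value above 0.05. The methods name a stricter limit on the p-value, which the lists do not follow: −log10 p-values reached down to 3.88 in the direct list and 3.79 in the MS-275 gained list. The summit was deposited as an offset in bases.

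Whole treated tags and the control level were solved from each fold enrichment and p-value, which reproduced all 1650 direct peaks within 0.002 of the −log10 p-value. The recovery was tested on simulated peaks, and 231 MS-275 summits at the same base in both MS-275 lists gave equal tags in 231. The scaling factors made the pooled MS-275 and CXD101 groups each 1.14 times as deep as vehicle; absolute depth per library was not used here.

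Sites were selected by an overlap of under 1 base with MS-275 gained peaks. Their choice, the gene lists and the rules for named genes were made with earlier results of these data known. Named were the 20 sites with the lowest p-values, those in a list against vehicle, those at a listed gene, genes with several sites, and sites next to the limit of the rule. Genes came from GENCODE M21 and sequence from GRCm38.p6, the assembly of mm10. Of the listed genes all but Mx2 were found. Some sites that these rules select are not reported here. Context went by the 5 kb upstream first, then by the summit. Intervals are 95% Wilson intervals, counts of 0 carry the share that 3 counts would make, and both cover counting error only. No significance test between groups or sets was run. Alternatives were stricter q-values, other overlap, promoter and gene rules, a narrower window and a pseudocount of 0. Computations used Python 3.11.15, pandas 2.3.3 and SciPy 1.17.1.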

Additional observations from a re-analysis of the deposited data

Results flagged for a closer look

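Calls against vehicle differed between the inhibitors at 17 of the 459 sites. They were lost with CXD101 against vehicle and not with MS-275, and they were called higher with MS-275 than with CXD101. A call in 1 list and none in another depends on the threshold and is not a measured difference. CXD101 lost sites of any kind made up 4.14% of the 459, beside 1.21% of all 1650 direct peaks. CXD101 entered both calls only as a control level, which is not a like quantity to the tags. The direct call of MS-275 over CXD101 is itself the comparison of the inhibitors, made on pooled libraries and without replicates. It was also what selected the sites, so it is no separate evidence. The other 2 CXD101 lost sites, Immt and Xiap, were in the MS-275 lost list as well.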

How the results depend on the processing

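No paired analysis was possible because replicate libraries had been merged before each comparison, and leaving out a replicate was not run for the same reason. Of 39 alternatives for 10 results, 30 kept the value within its 95% interval or, for counts, within 1.5 times, and 2 of the 39 were added after seeing the data. The number of sites ran from 346 (q-value under 0.001) to 489 (no gained summit within 250 bp), and was 436 with only fold enrichments above the median ratio of CXD101 tags to CXD101 level. The median fold enrichment moved from 2.41 to 2.47 and 2.58 at a q-value under 0.01 and 0.001 and to 2.49 with a pseudocount of 0, and the median MS-275 tags from 58.7 to 63.6 at a q-value under 0.001. The promoter share moved from 29.6% to 20.7% within 1 kb of a TSS and to 19.6% with protein-coding genes only. The AP-1 share moved from 7.41% to 3.70% with 50 bp either side of the summit. The share with the vehicle bound above the CXD101 level moved from 96.1% to 100% at a q-value under 0.01 and to 87.8% with the strictest p-value limit of the lists with more than 2 peaks. The CXD101 lost share was 3.72% without Immt and Xiap. Depth limits the sites with few tags, and the 115 with the lowest CXD101 levels had a median of 31 MS-275 tags.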
